A study of Mesocricetus auratus with 8 samples.

Results

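The mRNAs of 9 antioxidant enzymes were measured in 8 hearts of female golden hamsters (Mesocricetus auratus), each sequenced as 1 polyA RNA library. The genes were chosen by name, as targets of the transcription factor NRF2 or as enzymes that remove superoxide and peroxide, and all 9 had a row among the 20360 genes of the count table. By the series design these were Myh6 loss of heterozygosity hamsters and wild type hamsters, killed at 25 weeks of age and before dilated cardiomyopathy set in; Myh6 encodes the alpha cardiac myosin heavy chain. The labels identify each heart by a code, used below, and carry no genotype. The genotypes were therefore not compared, no heart was treated as a replicate of another, and each value below belongs to 1 animal.

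Heart muscle respires continuously, and superoxide leaks from its mitochondria. Superoxide dismutases turn superoxide into hydrogen peroxide, in the cytosol (Sod1) and in the mitochondrial matrix (Sod2). Catalase (Cat) and the peroxiredoxins, among them the mitochondrial Prdx3, then remove the peroxide. Glutathione and thioredoxin supply the reducing power for much of this work, and NRF2, the protein of Nfe2l2, raises the genes that make and recycle them when Keap1 no longer marks it for degradation.

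All 9 mRNAs were detected in every heart at modest differences between animals. The highest heart exceeded the lowest by 1.12-fold for Prdx3 and by 1.59-fold for Srxn1, the ends of the range over the 9 genes. Txnrd1 and Sod2 were low in M5F5 and M5F7, the hearts in which Sod1 was high. M5F12 held the highest value of Gclc, Txnrd1, Srxn1 and Cat and the lowest of Nqo1 and Sod1. Values are CPM, counts scaled to the library total after adjustment by the trimmed mean of M-values, and a log2 value uses a prior count of 0.5. Library totals lay between 13608500 and 15255764 counts.

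**Figure D1:**
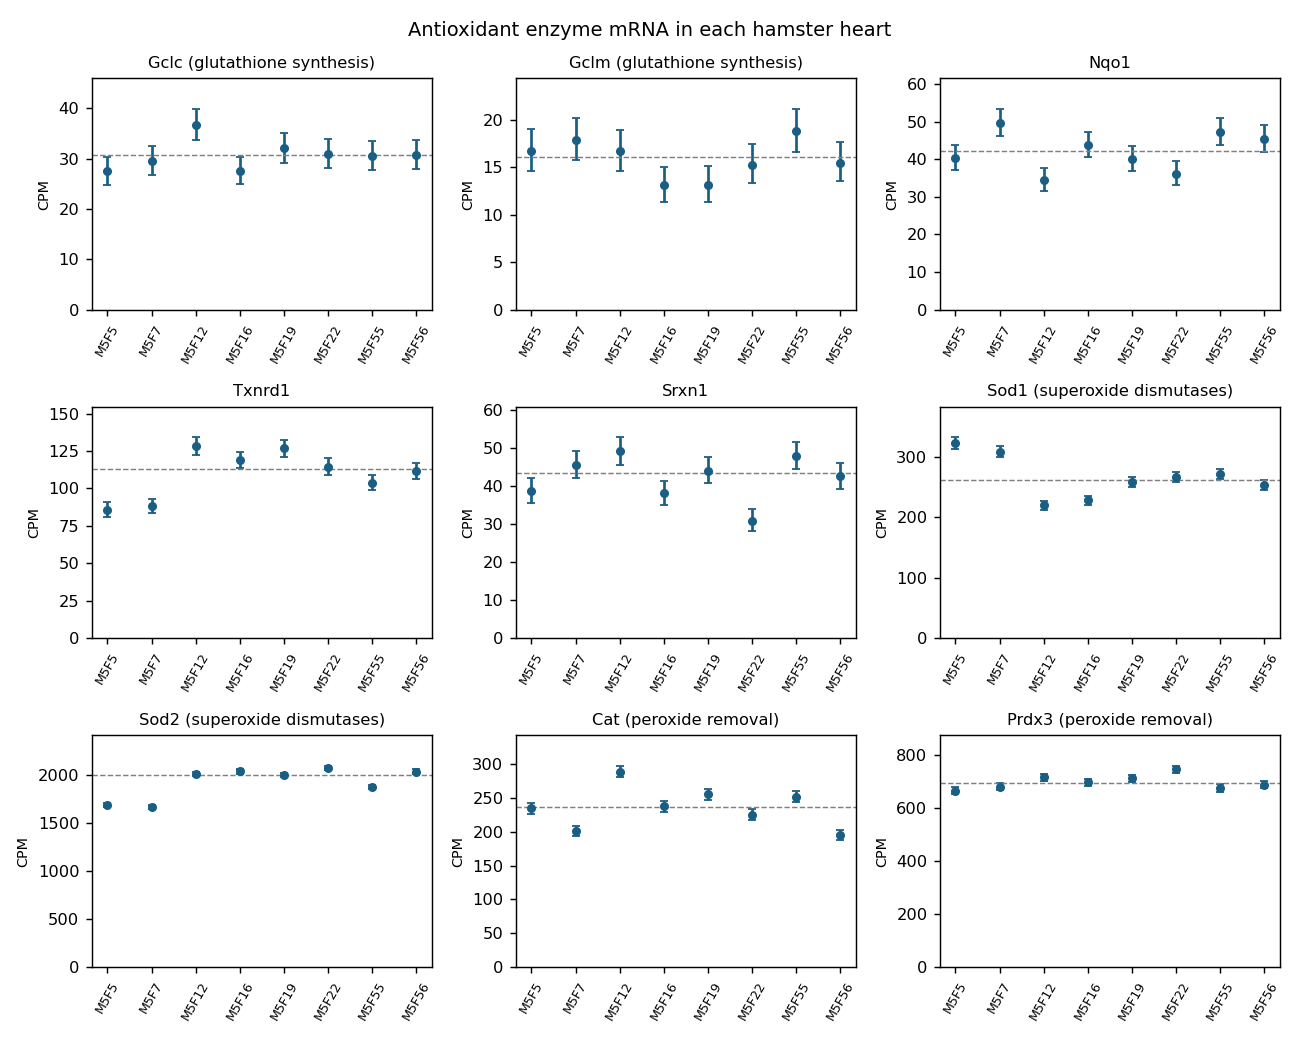
Level of each of the 9 antioxidant enzyme mRNAs (vertical axis, CPM, from 0) in each of the 8 hearts (horizontal axis); bars are exact 95% Poisson intervals, which cover counting error only, and the dashed line is the median. Txnrd1 was at 85.9 and 88.2 CPM in M5F5 and M5F7 and at 104 CPM or more elsewhere, while Sod1 was at 323 and 308 CPM in those hearts and at 271 CPM or less elsewhere.

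Glutathione synthesis begins with glutamate-cysteine ligase, whose catalytic subunit is encoded by Gclc and whose modifier subunit by Gclm. Gclc stood at 27.5 CPM in M5F5, 29.5 in M5F7, 36.7 in M5F12, 27.6 in M5F16, 32.0 in M5F19, 30.9 in M5F22, 30.5 in M5F55 and 30.8 in M5F56. M5F12 was thus above the other 7, although its 95% Poisson interval, 33.6 to 39.9 CPM, overlapped that of M5F19, 29.2 to 35.1 CPM. The fold between the highest and the lowest heart was 1.33, and 1.16 once both extremes were dropped. Gclm stood at 16.7 CPM in M5F5, 17.9 in M5F7, 16.7 in M5F12, 13.1 in M5F16, 13.2 in M5F19, 15.3 in M5F22, 18.8 in M5F55 and 15.5 in M5F56. M5F16 was low for both genes, while M5F19, also low for Gclm, was above the median for Gclc, and the fold of Gclm was 1.43.

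The count ratio of Gclm to Gclc within a library does not depend on the scaling between libraries. It was 0.608 in M5F5, 0.606 in M5F7 and 0.616 in M5F55, and from 0.412 in M5F19 to 0.504 in M5F56 in the other 5 hearts. The modifier and the catalytic subunit therefore differed in unequal measure between animals. The value is not a ratio of molecules, since no transcript lengths were at hand.

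Nqo1, Txnrd1 and Srxn1 encode a quinone reductase, the cytosolic thioredoxin reductase and sulfiredoxin, which revives over-oxidised peroxiredoxins. Nqo1 stood at 40.4 CPM in M5F5, 49.7 in M5F7, 34.6 in M5F12, 43.8 in M5F16, 40.0 in M5F19, 36.2 in M5F22, 47.3 in M5F55 and 45.4 in M5F56, a 1.44-fold span. It was high in M5F7 and M5F55 and low in M5F12 and M5F22. Txnrd1 stood at 85.9 CPM in M5F5, 88.2 in M5F7, 128 in M5F12, 119 in M5F16, 127 in M5F19, 115 in M5F22, 104 in M5F55 and 111 in M5F56. M5F5 and M5F7 were low together, with intervals of 81.1 to 90.9 and 83.4 to 93.1 CPM that ended below the 98.7 to 109 CPM of M5F55, the next heart up. The span of Txnrd1 was 1.49-fold, and 1.44-fold after its highest and lowest heart were dropped.

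Srxn1 was low in another heart. It stood at 38.7 CPM in M5F5, 45.6 in M5F7, 49.2 in M5F12, 38.2 in M5F16, 44.0 in M5F19, 30.9 in M5F22, 48.0 in M5F55 and 42.7 in M5F56. M5F22 alone set much of the 1.59-fold span, since its interval of 28.2 to 33.9 CPM ended below the 35.2 to 41.5 CPM of M5F16, the next heart up. The span was 1.26-fold after the highest and the lowest heart were dropped. Its ratio to Prdx3, a peroxiredoxin of the class that sulfiredoxin repairs, was 0.0414 in M5F22 and 0.0548 to 0.0710 in the other 7 hearts.

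The superoxide dismutases were high in different hearts. Sod1, the copper and zinc enzyme of the cytosol, stood at 323 CPM in M5F5, 308 in M5F7, 219 in M5F12, 228 in M5F16, 257 in M5F19, 266 in M5F22, 271 in M5F55 and 253 in M5F56, a 1.47-fold span. Sod2, the manganese enzyme of mitochondria, stood at 1688 CPM in M5F5, 1665 in M5F7, 2015 in M5F12, 2039 in M5F16, 1999 in M5F19, 2077 in M5F22, 1877 in M5F55 and 2037 in M5F56, a 1.25-fold span. The hearts with the highest Sod1, M5F5 and M5F7, had the lowest Sod2, and M5F55 lay next to them on both genes.

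The count ratio of Sod2 to Sod1 was accordingly 5.23 in M5F5 and 5.41 in M5F7, 6.94 in M5F55, and from 7.76 in M5F19 to 9.18 in M5F12 in the other 5 hearts. It spanned 1.75-fold, and 1.65-fold between M5F16 and M5F7, the hearts next to the extremes. The spread of the ratio therefore did not rest on 1 animal.

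**Figure D2:**
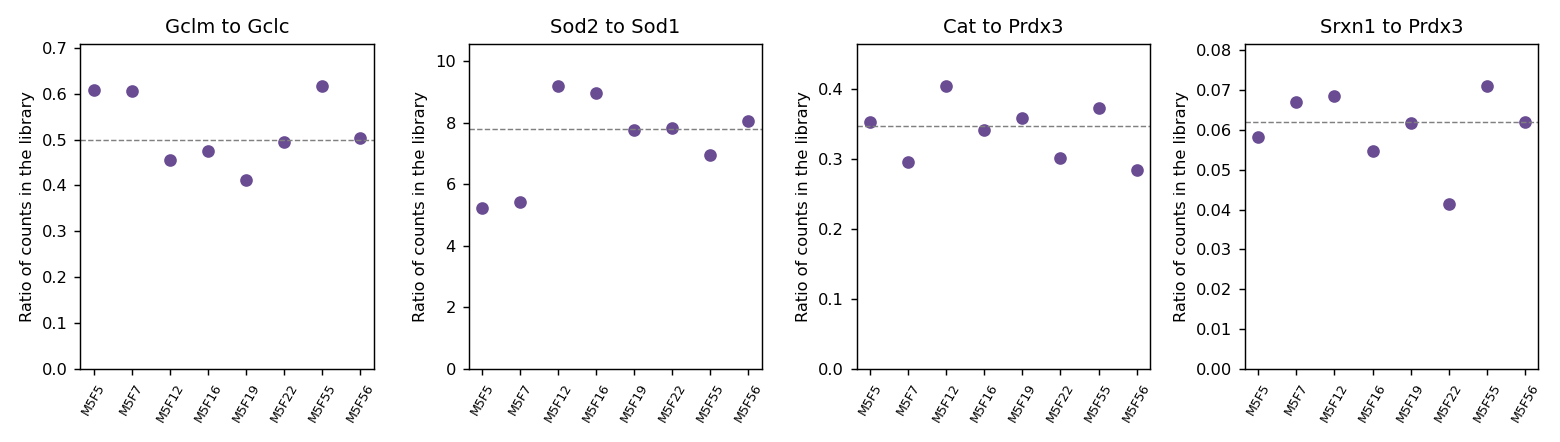
Ratio of the counts of a pair of genes within each library (vertical axis, from 0) for each of the 8 hearts (horizontal axis), with the median dashed. The Sod2 to Sod1 ratio was 5.23 and 5.41 in M5F5 and M5F7 against a median of 7.79, and the Srxn1 to Prdx3 ratio was lowest in M5F22 at 0.0414.

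Peroxide is removed by catalase, which works mainly in peroxisomes, and by peroxiredoxin 3, which resides in mitochondria. Cat stood at 235 CPM in M5F5, 201 in M5F7, 289 in M5F12, 238 in M5F16, 255 in M5F19, 225 in M5F22, 252 in M5F55 and 195 in M5F56, a 1.48-fold span. M5F12 was above and M5F7 and M5F56 were below the rest, and the interval of M5F12, 281 to 298 CPM, started above the 247 to 264 CPM of M5F19. Prdx3 stood at 665 CPM in M5F5, 682 in M5F7, 716 in M5F12, 697 in M5F16, 713 in M5F19, 747 in M5F22, 676 in M5F55 and 689 in M5F56. Among the 10909 genes that averaged 50 counts or more, 1.53% had a narrower span than this gene. The Cat to Prdx3 count ratio ran from 0.284 in M5F56 to 0.404 in M5F12.

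**Figure D3:**
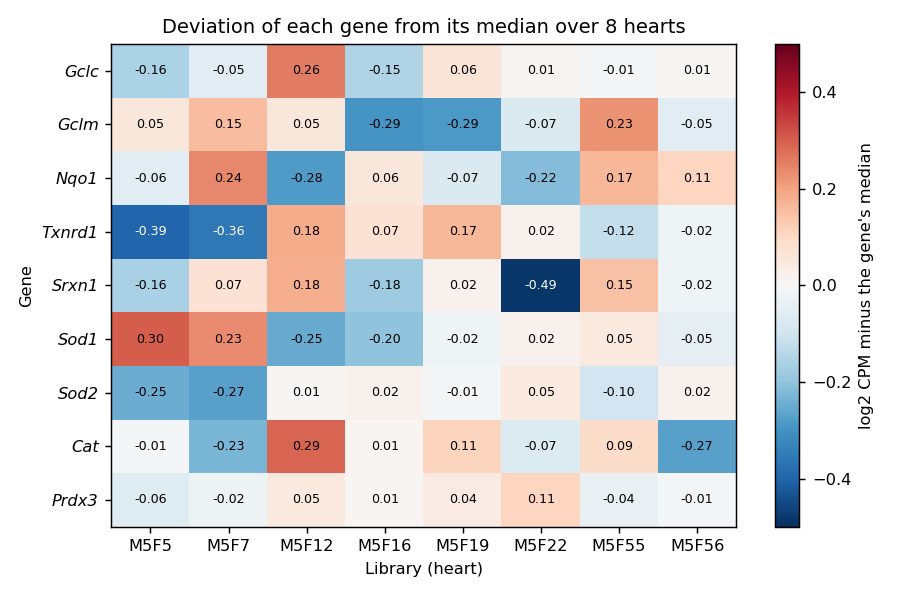
Log2 CPM of each gene (rows) in each heart (columns) minus that gene's median over the 8 hearts, printed in each cell and coloured from blue (below the median) to red (above). Txnrd1 was 0.39 and 0.36 below its median in M5F5 and M5F7, where Sod1 was 0.30 and 0.23 above its own, and Srxn1 was 0.49 below its median in M5F22.

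The differences between hearts were set against counting error with a chi-square test of each gene's 8 counts against equal relative abundance. All 9 enzymes had a Benjamini-Hochberg adjusted p below the threshold of 0.05, the largest being 0.000471 for Gclm, but so did 86.4% of all genes tested. This test covers counting error only, and its p falls with depth. The spread beyond counting error was therefore also given as a coefficient of variation, the square root of the excess of chi-square per degree of freedom over 1, divided by the mean count before the root was taken. It was 3.63% for Prdx3, 8.15% for Gclc, 8.48% for Sod2, 11.2% for Gclm, 11.9% for Nqo1, 12.7% for Cat, 13.2% for Sod1, 13.7% for Srxn1 and 14.4% for Txnrd1.

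None of the 9 enzymes differed 2-fold between its highest and its lowest heart together with an adjusted p below the threshold, whereas 13.9% of all genes tested did. Likewise 0 of the 9 kept a 2-fold span after the highest and the lowest heart were dropped, beside 2.84% of all genes. With 9 genes, neither count was tested as a difference from those shares. The median span was 1.44-fold for the 9 enzymes and 1.45-fold for all genes tested, and 5 of the 9 had a span below the median of all genes. That likeness depended on the count filter. Counting error widens the span of genes with few counts, and its part here was not tested. Among the 4683 genes that averaged at least 500 counts the median span was 1.33-fold, and it was 1.47-fold for the 7 enzymes among them. This difference was not tested.

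**Figure D4:**
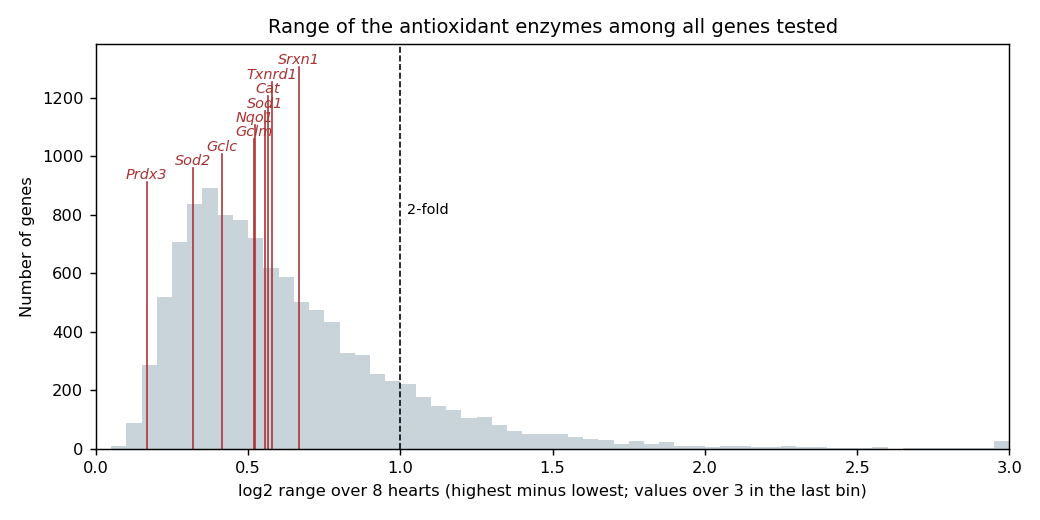
Histogram of the log2 CPM range over the 8 hearts (horizontal axis, highest minus lowest heart) for the 10909 genes tested (vertical axis, number of genes), with the 9 enzymes as red lines; line height only separates the names. Every enzyme lies left of the dashed 2-fold line, from 1.12-fold for Prdx3 to 1.59-fold for Srxn1.

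Which enzymes varied together across the 8 hearts was examined for all 36 pairs, with Pearson's r and Spearman's rho of log2 CPM and exact two-sided permutation tests over all pairings of the libraries. No pair had an adjusted p below 0.05 by either coefficient: the lowest were 0.121 for Pearson and 0.261 for Spearman. Before adjustment 5 pairs by Pearson and 6 by Spearman were below it. The strongest involved Txnrd1 and the dismutases. Txnrd1 with Sod1 had r = -0.91 (exact permutation p = 0.00389, adjusted p = 0.121) and rho = -0.88 (exact permutation p = 0.00724, adjusted p = 0.261). Txnrd1 with Sod2 had r = 0.91 (exact permutation p = 0.00670, adjusted p = 0.121) and rho = 0.60 (exact permutation p = 0.132, adjusted p = 0.280). Without M5F5 and M5F7, the hearts farthest from the Txnrd1 median, r was -0.66 for the first pair and 0.48 for the second, so the second rests largely on those hearts.

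Sod1 with Sod2 had r = -0.84 (exact permutation p = 0.0131, adjusted p = 0.157) and rho = -0.67 (exact permutation p = 0.0831, adjusted p = 0.280), and r = -0.83 without M5F5 and M5F12, the hearts farthest from the Sod1 median. That check kept M5F7, which had high Sod1 and low Sod2 as M5F5 did. For this pair r without both M5F5 and M5F7 was not computed, so how far it rests on them is not known. The mitochondrial pair, Sod2 with Prdx3, had r = 0.73 (exact permutation p = 0.0362, adjusted p = 0.326) and rho = 0.74 (exact permutation p = 0.0458, adjusted p = 0.275), and r = 0.70 without M5F5 and M5F7. Txnrd1 with Prdx3 had r = 0.71 (exact permutation p = 0.0496, adjusted p = 0.337) and rho = 0.83 (exact permutation p = 0.0154, adjusted p = 0.275), and r = 0.50 without M5F5 and M5F7. Gclc with Prdx3 had r = 0.52 (exact permutation p = 0.185) and rho = 0.76 (exact permutation p = 0.0368, adjusted p = 0.275), and Gclm with Sod2 r = -0.60 (exact permutation p = 0.113) and rho = -0.74 (exact permutation p = 0.0458, adjusted p = 0.275), with r = 0.31 and r = -0.60 without the hearts farthest from the Gclc and Gclm medians. The call depended on the scaling for 1 pair. Txnrd1 with Sod1 had r = -0.96 (exact permutation, adjusted p = 0.00982) with plain total counts and r = -0.94 (exact permutation, adjusted p = 0.0451) with upper quartile factors.

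**Figure D5:**
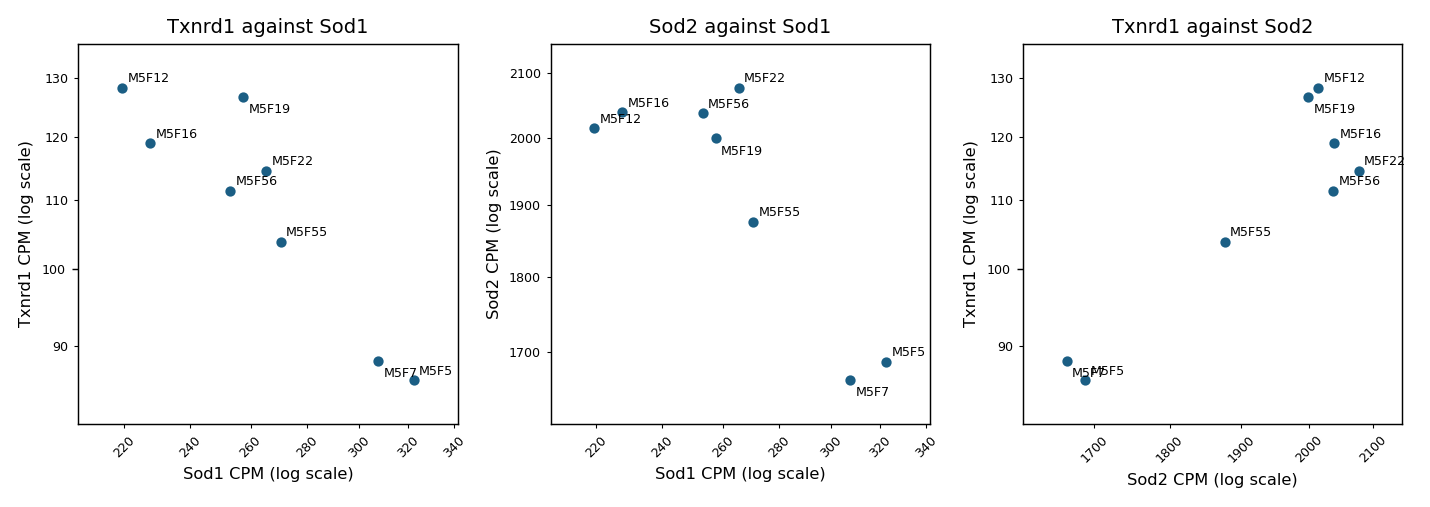
Each point is 1 heart, with CPM on logarithmic axes: Txnrd1 against Sod1, Sod2 against Sod1 and Txnrd1 against Sod2. M5F5 and M5F7 lie apart from the other 6 hearts in all 3 panels, and r was -0.91, -0.84 and 0.91 over the 8 hearts.

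The 5 enzymes known as NRF2 targets, Gclc, Gclm, Nqo1, Txnrd1 and Srxn1, form 10 pairs, with r from -0.60 for Gclm with Txnrd1 to 0.63 for Gclc with Txnrd1. Of these, 7 were positive. The subunits of glutamate-cysteine ligase, Gclc and Gclm, had r = 0.12 (exact permutation p = 0.790). Nqo1 with Srxn1 had r = 0.31 (exact permutation p = 0.455), which depended on single hearts: r was 0.81 without M5F12, 0.80 without M5F12 and M5F7, the hearts farthest from the Nqo1 median, and -0.10 without M5F22. Nqo1 with Txnrd1 had r = -0.54 (exact permutation p = 0.173), and -0.09 without M5F12 and M5F7. Txnrd1 with Srxn1 had r = 0.03 (exact permutation p = 0.946). None of the 10 had an unadjusted Pearson p below 0.05 and 1, Gclc with Txnrd1, had such a Spearman p (rho = 0.76, exact permutation p = 0.0368, adjusted p = 0.275). The call for that pair depended on single hearts. Without M5F16 it had r = 0.85 (exact permutation, adjusted p = 0.0357) and rho = 1 (exact permutation, adjusted p = 0.0143), whereas r was 0.21 without M5F5 and M5F12, the hearts farthest from the Gclc median. The sign of r was not stable for Gclc with Gclm or for Txnrd1 with Srxn1: leaving out each heart in turn gave -0.19 to 0.28 for the first and -0.20 to 0.24 for the second, which got no value without M5F55. With 8 hearts these tests leave room for sizeable relations of either sign. Cat with Prdx3, the enzymes of peroxide removal, had r = 0.24 (exact permutation p = 0.564).

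NRF2 itself was examined beside its targets. Nfe2l2 stood at 88.4 CPM in M5F5, 77.1 in M5F7, 97.8 in M5F12, 82.9 in M5F16, 65.8 in M5F19, 86.9 in M5F22, 83.8 in M5F55 and 78.6 in M5F56, highest in M5F12, the heart with the highest Gclc, Txnrd1 and Srxn1. It was lowest in M5F19, the heart with the second highest Gclc and Txnrd1. Keap1 stood at 90.5 CPM in M5F5, 93.3 in M5F7, 87.6 in M5F12, 79.2 in M5F16, 82.4 in M5F19, 85.4 in M5F22, 92.2 in M5F55 and 86.8 in M5F56, a 1.18-fold span. NRF2 is governed mainly as a protein, which mRNA does not show. Of the 10 tested genes of the list of NRF2 partners, none spanned 2-fold, beside 13.9% of all genes tested, and the median span was 1.35-fold. Cul3, the ligase scaffold that works with Keap1, ran from 194 to 211 CPM, and Nfe2l1, a relative of NRF2, from 622 CPM in M5F7 to 988 CPM in M5F12.

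Of 22 further tested NRF2 targets, 2 spanned 2-fold, or 9.09%, beside 13.9% of all genes tested (median span of the 22, 1.59-fold). This difference was not tested. Among the 2 was Osgin1, an oxidative stress inhibitor of growth, at 62.5 CPM in M5F12 and 26.3 CPM in M5F56. Fth1 and Ftl, the ferritin chains, ran from 1632 to 2174 CPM and from 148 to 264 CPM, both highest in M5F5. Prdx1, a cytosolic peroxiredoxin, ran from 187 CPM in M5F16 to 238 CPM in M5F5.

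Of 22 tested genes of the glutathione system, 3 spanned 2-fold, namely Gpx7, Ggt5 and Oplah. Their share of 13.6% was near the 13.9% of all genes tested. The median span was 1.42-fold, and M5F5 held the highest value of 12. How often each heart was highest or lowest over all genes tested was not counted. Such counts, here and for the lists below, therefore do not mark a trait of a list. Gstp1, a glutathione transferase, was lowest in M5F56 at 861 CPM and highest in M5F5 at 1108 CPM, and Gpx4, which reduces lipid peroxides, from 241 CPM in M5F12 to 335 CPM in M5F5. Of 18 genes of the thioredoxin and peroxiredoxin system (median 1.28-fold), 1 spanned 2-fold, or 5.56%, a share not tested against the 13.9%. M5F5 held the highest value of 7 of the 18 and M5F16 the lowest of 8. The gene that spanned 2-fold was Txnip, the inhibitor of thioredoxin, at 721 CPM in M5F56 and 1253 to 1518 CPM in the other 7. Prdx2 ran from 555 to 714 CPM and Prdx6 from 483 to 533 CPM.

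None of the 6 partners of superoxide removal spanned 2-fold, beside 13.9% of all genes tested, a difference that was not tested. Ccs, the copper chaperone of Sod1, stood at 34.3 CPM in M5F5 and 36.9 CPM in M5F7 and at 23.0 CPM in M5F12, so its extremes lay in the same hearts as the high and low values of Sod1. Sod3, the extracellular dismutase, ran from 2.66 to 4.99 CPM. Of 12 genes of NADPH supply, which feeds both thioredoxin and glutathione reductase, 1 spanned 2-fold, or 8.33%, also not tested against 13.9%. M5F7 held the lowest value of 7, a count again without the share over all genes. Nnt, the mitochondrial transhydrogenase, ran from 1610 CPM in M5F7 to 2368 CPM in M5F16, and Idh2 from 3617 CPM in M5F12 to 5170 CPM in M5F5.

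Among 15 regulators of mitochondrial and peroxisomal antioxidants 3 spanned 2-fold, or 20.0%, beside 13.9% of all genes tested, a difference that was not tested. Each of the 3 was lowest in M5F5 and M5F7, the hearts with low Sod2. The 3 were picked by their span, which the low values in those hearts widened. Over all 15 regulators M5F7 held the lowest value of 4, M5F5 of 1 and M5F56 of 3. Ppargc1a, a coactivator of mitochondrial biogenesis, was at 124 CPM in M5F5 and 104 CPM in M5F7 and at 147 to 257 CPM in the other 6. Ppargc1b was at 36.1 CPM in M5F5 and 40.6 CPM in M5F7 and at 43.0 to 102 CPM in the other 6. Ppara, which drives fatty acid genes, was at 25.5 CPM in M5F5 and 24.9 CPM in M5F7 and at 35.3 to 84.9 CPM in the other 6. The median span of the 15 was 1.30-fold.

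The peroxisome list had 2 of 25 tested genes past 2-fold (median 1.29-fold). These were Pex10, of peroxisomal protein import, from 3.91 CPM in M5F7 to 8.54 CPM in M5F22, and Pex11a, of peroxisome division, from 11.3 CPM in M5F22 to 24.2 CPM in M5F5. Of 6 oxidant sources 2 spanned 2-fold, Aox1 among them, and of 10 genes of selenoprotein synthesis, on which thioredoxin reductases depend, 1 did (Sepsecs). Over all 138 tested pathway genes other than the 9 enzymes, 14 spanned 2-fold, or 10.1%, beside 13.9% of all genes tested, with a median span of 1.42-fold.

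The genes whose pattern over the 8 hearts was most like that of each enzyme were taken by Pearson's r of log2 CPM. With 10909 candidates and 8 hearts such values are high by choice, and they are given as a description. Sod1 was most like Atp5h, a subunit of the ATP synthase (r = 0.997), and Smdt1, a regulator of the mitochondrial calcium uniporter (r = 0.99). Sod2 was most like Styx (r = 0.99) and Angpt1, an angiopoietin (r = 0.99), and Txnrd1 most like Slc4a4, a bicarbonate cotransporter (r = 0.99), and Dip2c (r = 0.99). Cat was most like Hadhb, of mitochondrial fatty acid oxidation (r = 0.98), and LOC101833044 (r = 0.97). Gclm was most like Keap1 (r = 0.96) and Cacnb3 (r = 0.96), and Gclc like Mfsd3 (r = 0.95) and Rab32 (r = 0.91). Nqo1 was most like Rab4b (r = 0.96) and LOC106023157 (r = 0.94), Srxn1 like Mob3a (r = 0.96) and Armc6 (r = 0.95), and Prdx3 like Blmh (r = 0.98) and LOC101836613 (r = 0.97).

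Other transcripts were also high in M5F5 and M5F7, the hearts with high Sod1 and low Txnrd1. The 46 tested genes whose symbols begin with Nduf, taken by symbol alone, mostly encode subunits and assembly factors of respiratory complex I. They were a median of 1.12-fold their own median in M5F5, 1.12-fold in M5F7 and 0.855-fold, their lowest, in M5F12, where Sod1 was also lowest. The 65 Rpl and Rps genes of the cytosolic ribosome were at 1.25-fold in M5F5 and 1.10-fold in M5F7. They were at 0.941-fold in M5F12 and lowest, at 0.875-fold, in M5F19, where Sod1 was near its median. Both families were looked up after the values of the enzymes had been seen, and their part in the differences of Sod1, Sod2 and Txnrd1 was not tested.

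Markers of cell types also differed between the hearts, and in bulk tissue fewer cells of a type and less RNA per cell cannot be told apart. The 10 cardiomyocyte markers, all in the table, summed to 93522 CPM in M5F5, 94486 in M5F7 and 74166 in M5F12, the lowest, with 79874 to 89189 in the other 5. Of the 10 markers 6 were lowest in M5F12, but not all followed the sum. Ryr2 was lowest in M5F5 at 1128 CPM, with M5F7 next at 1172 CPM, and Mybpc3 was second highest in M5F12 at 5413 CPM. The 9 measured macrophage markers summed to 136 CPM in M5F12 and 70.5 CPM in M5F5, with 83.4 to 115 CPM in the other 6, and the 10 endothelial markers to 1818 CPM in M5F7 and 1579.6 CPM in M5F5, with 1084.5 to 1496 CPM elsewhere. The 9 measured liver markers summed to 138 CPM in M5F5, mostly Alb at 90.7 CPM, and to 0.205 to 1.78 CPM in the other 7. Liver is rich in catalase and Sod1, and the part of liver RNA in the values of M5F5 was not tested. The 8 fibroblast markers summed to 1219.8 to 1490.9 CPM and the 8 smooth muscle and pericyte markers to 1195 to 1693 CPM. The 5 measured erythroid markers summed to 11.7 CPM in M5F22 and to 25.2 to 35.0 CPM in the other 7. The 6 measured adipocyte markers summed to 142 to 281 CPM, nearly all of it Fabp4, which endothelial cells also express, while Adipoq and Lep had 0 counts in every heart. The part of these cell types in the values of the enzymes was not tested.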

How the data were processed

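Per the labels' protocols, Trizol was used to extract RNA and polyA probes to retrieve mRNA. The authors deposited counts, which are whole numbers with differing totals and were taken as not normalized. HISAT2 2.0.4, Bowtie2 2.2.5 and RSEM (no version) are named in the submitters' processing notes with no role. Build, annotation, strand setting and rounding were not given in the sources used here, so reads of near-identical copies could be split. Genes were named as in the table, and 397 of 4676 identifiers that begin with LOC took a symbol from the RefSeq gene table of BCM_Maur_2.0.

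Counts were scaled with TMM (edgeR 4.0.16, R 4.3.3; factors 0.960 to 1.05). The 10909 genes that averaged at least 50 counts were tested by chi-square over the libraries (scipy 1.17.1) with Benjamini-Hochberg adjustment. A gene was counted as spanning 2-fold when the log2 range was at least 1 and the adjusted p under 0.05. The floor set for a count of 0, 3 counts, equals 0.199 to 0.214 CPM. Poisson intervals and this floor cover counting error only and leave out the spread between animals and between libraries. PCR reads that carry no molecular identifiers are not independent, so the intervals can be too narrow even for counting error. The method was tested on simulated data. The simulated counts carried counting error only, with built-in changes larger than the span of any enzyme. That test therefore does not cover the spread between animals seen here. With no groups labelled, edgeR's group tests could not be fitted.

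The 9 enzymes and the lists were chosen with earlier results of these data known. Named genes are the enzymes, Nfe2l2, Keap1, up to 3 of each list by median CPM and up to 3 by trimmed range, and the 2 genes most like each enzyme; of the genes these rules pick, not all are described. List genes counted as spanning 2-fold that the rules do not pick (Sepsecs), and the Nduf and ribosomal genes, were named after their values were seen. Alternatives were DESeq2 1.42.0 size factors, total counts, upper quartile factors, a prior count of 5, other count filters and leaving out each library. No promoter or protein sequences were used here, and some genes of the lists are not reported here by name.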

Additional observations from a re-analysis of the deposited data

Results flagged for a closer look

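The 9 enzymes, the 4 count ratios, Nfe2l2, Keap1 and the other named pathway genes, 70 measures in all, were examined for a heart that stands far from the other 7, taking the gap to its neighbour as a share of the whole range in log2. A share above Dixon's 95% critical value counts as far, which chance gives in about 1 of 20 such sets of 8. Of the 70 measures 2 passed, no more than that rate alone would give. Some measures share genes, and some genes were picked by their trimmed range, so that rate is only a rough guide. Txnip, the inhibitor of thioredoxin, was at 721 CPM in M5F56 and at 1253 CPM or more in the other 7, with a gap of 0.743 of the range. Aox1, an aldehyde oxidase that can form superoxide and peroxide, was at 46.5 CPM in M5F56 and at 80.3 CPM or more in the other 7, with a gap of 0.620. None of the 9 enzymes passed. The nearest measure among the enzymes and their ratios was the Srxn1 to Prdx3 ratio, low in M5F22 with a gap of 0.520.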

How the results depend on the processing

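No enzyme spanned 2-fold, by the full or the trimmed range, under any of the 14 alternatives run for those counts, of which the one with a mean count of at least 500 tested 7 of the 9 and left out Gclc and Gclm. Most of these alternatives could hardly have answered otherwise. Leaving out a library widens a span only through slight rescaling, a larger prior count narrows it, and the count filters leave CPM unchanged. Only the changes of scaling could have widened the spans appreciably. The number of enzyme pairs with an adjusted p below 0.05, 0 by either coefficient with TMM, was 1 by Pearson and 1 by Spearman with total counts and again 1 and 1 with upper quartile factors (Txnrd1 with Sod1 in each case), and 0 with DESeq2 size factors and with a prior count of 5. With DESeq2 size factors, with upper quartile factors and without M5F22, the 8 pairs of Sod2 got no coefficient because its values fell into separate clusters, nor did the 15 pairs of Sod2 or Txnrd1 without M5F55. The adjustment covered only pairs with a coefficient, so in those settings it was over fewer tests than with TMM. Leaving out a single library gave 0 to 3 pairs by Pearson and 0 to 1 by Spearman: without M5F16, Gclc with Txnrd1 passed by both, and Gclc with Sod1 (r = -0.94) and Txnrd1 with Sod1 (r = -0.92) by Pearson; without M5F19, Txnrd1 with Sod1 (r = -0.97) passed by Pearson. The other pathway genes spanning 2-fold numbered 14, against 16 with total counts, 21 with no count filter and 6 with a mean count of at least 500, settings in which 14.4%, 22.7% and 6.92% of all genes tested did. The span of single enzymes moved by more than counting error in 8 of 108 recomputations. At library totals of 13608500 to 15255764 counts, the 95% intervals of Gclm, the enzyme with the fewest counts, were 11.3 to 15.1 CPM in its lowest heart and 16.6 to 21.2 CPM in its highest, while those of many hearts between overlapped.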
